A study of Mus musculus with 22 samples.

Results

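The transporter genes Slc22a6, Slc22a8, Slc22a2, Slc13a4, Slc47a1 and Slc6a13 were taken by name from the count files of a study of the embryonic mouse spinal cord, where all 6 were present among 55376 genes. Their levels were described in endothelial cells of the spinal meninges and of the cord tissue, and in endothelial cells and motor neurons of embryos lacking or carrying the guidance receptor gene Plxnd1. Polyadenylated RNA was sequenced from cells sorted at E12.5, in mid-gestation: endothelial cells by the reporter Kdr::Cherry, which marks the VEGF receptor gene Kdr, and motor neurons by Isl1::GFP, which marks a transcription factor gene of these neurons.

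The regional series held 5 libraries of wild-type meningeal endothelial cells and 5 of wild-type spinal endothelial cells. Spinal batches 1 to 3 came from the ventral cord tissue and batches 4 and 5 from the whole cord. The knockout series was prepared from cord dissected together with its meninges. It held 3 libraries of Plxnd1-knockout endothelial cells, 2 of wild-type endothelial cells, 3 of Plxnd1-knockout motor neurons and 3 of wild-type motor neurons. The endothelial library labelled wild type, batch 2, was left out because its counts equal those of knockout batch 1 in all 55376 genes. Embryos were pooled by genotype and the size of a pool is not stated; the p-values therefore speak to the spread among libraries, not among embryos. The labels do not give the Plxnd1 allele.

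Totals were 15685784 to 21493255 counts in the 10 regional libraries and 20680902 to 27035395 in the 11 used knockout-series libraries. Levels are CPM, counts scaled by the TMM-adjusted total of each library. Plxnd1 averaged 21.0 ± 7.05 CPM in knockout endothelial cells (SD, n = 3) and 194 ± 27.1 CPM in wild type (n = 2), and was at 0.646 to 1.79 CPM in knockout and 5.14 to 12.1 CPM in wild-type motor neurons. The sorted endothelial libraries also held much RNA of meningeal fibroblast markers. A list of 18 such markers summed to 17990.9 to 24913.9 CPM in meningeal libraries and to 3148 to 5146 CPM in spinal ones, while 18 endothelial markers summed to 1298 to 2594 CPM in meningeal and 2493 to 5488 CPM in spinal libraries. In bulk samples, a different share of cells of a type and a different amount of RNA per cell cannot be told apart.

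Organic ion transporters move small charged metabolites and drugs across the borders of an organ. Slc22a6 (OAT1) and Slc22a8 (OAT3) take up organic anions in exchange for dicarboxylates and are best known from the kidney tubule; Slc22a8 is also a transporter of brain capillaries and choroid plexus. Slc22a2 (OCT2) carries organic cations, Slc47a1 (MATE1) extrudes them against protons, Slc13a4 (NaS2) takes up sulfate with sodium, and Slc6a13 (GAT2) takes up GABA and taurine, all with described expression in the leptomeninges or kidney.

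Slc22a6 and Slc22a8 are neighbours on mouse chromosome 19, both on the plus strand. In the mm10 coordinates of the files Slc22a8 spans chr19:8591254-8611835 and Slc22a6 chr19:8618039-8628299, with 6203 bases between them. They went in opposite directions between the regions, so the 250 bases before each RefSeq start (GRCm38.p6, plus strand) are shown here. Capitals mark GTTAAT, a recognition element of the HNF1 factors, which are known to act on both genes in kidney. The Slc22a6 stretch is chr19:8617746-8617995 and the Slc22a8 stretch is chr19:8592932-8593181; neither overlaps an exon in the files, and the second of these stretches lies within an intron of the longer Slc22a8 model.
Slc22a6: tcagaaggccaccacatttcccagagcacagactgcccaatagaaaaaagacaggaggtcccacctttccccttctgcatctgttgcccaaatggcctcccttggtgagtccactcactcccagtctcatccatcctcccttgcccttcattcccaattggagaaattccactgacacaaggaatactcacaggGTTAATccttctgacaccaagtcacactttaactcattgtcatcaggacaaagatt
Slc22a8: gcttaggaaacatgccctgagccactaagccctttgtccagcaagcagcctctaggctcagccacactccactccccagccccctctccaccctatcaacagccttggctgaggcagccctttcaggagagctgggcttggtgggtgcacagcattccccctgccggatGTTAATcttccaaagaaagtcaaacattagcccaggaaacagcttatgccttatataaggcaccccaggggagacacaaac

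Each stretch holds 1 GTTAAT on the strand of the gene, 56 to 51 bases before the start in Slc22a6 and 81 to 76 bases before it in Slc22a8. On either strand this motif is in 6.43 % of the 32851 RefSeq entries cut to the same 250 bases. The other motifs were searched on both strands as well. They were the ETS core AGGAAG (in 29.5 % of entries), the TCF/LEF element CTTTGAT (3.21 %), the forkhead element GTAAACA (3.17 %), the TATA box TATAAA (12.4 %) and the GC box GGGCGG (32.7 %). None of them is in either stretch as spelt here, and no matches overlapped. Entries were found for 5 of the 6 genes. Slc13a4 has 1 GGGCGG, Slc6a13 has 2 GGGCGG in its first entry and 1 GTTAAT on the opposite strand in its second, and Slc22a2 has none of the motifs.

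The first question was how the transporters differ between meningeal and spinal endothelial libraries. Of the 6 genes, 4 passed the filter on low counts, and 3 of these 4 were called higher and 1 lower in meningeal libraries. In this comparison 47.8 % of the 16213 genes tested were called, 23 % higher and 24.8 % lower, so a call in itself was common. The members' median log2 fold change was 5.84, against -0.01 over all genes. Slc22a6, Slc6a13 and Slc13a4 would not have passed the filter on spinal libraries alone. They entered the test through the meningeal libraries, where they are high, which favours a higher call. The count of calls and the median are therefore a description only. The organic anion carrier Slc22a6, the GABA carrier Slc6a13 and the sulfate carrier Slc13a4 were higher in the meninges, and the anion carrier Slc22a8 was lower.

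**Figure D1:**
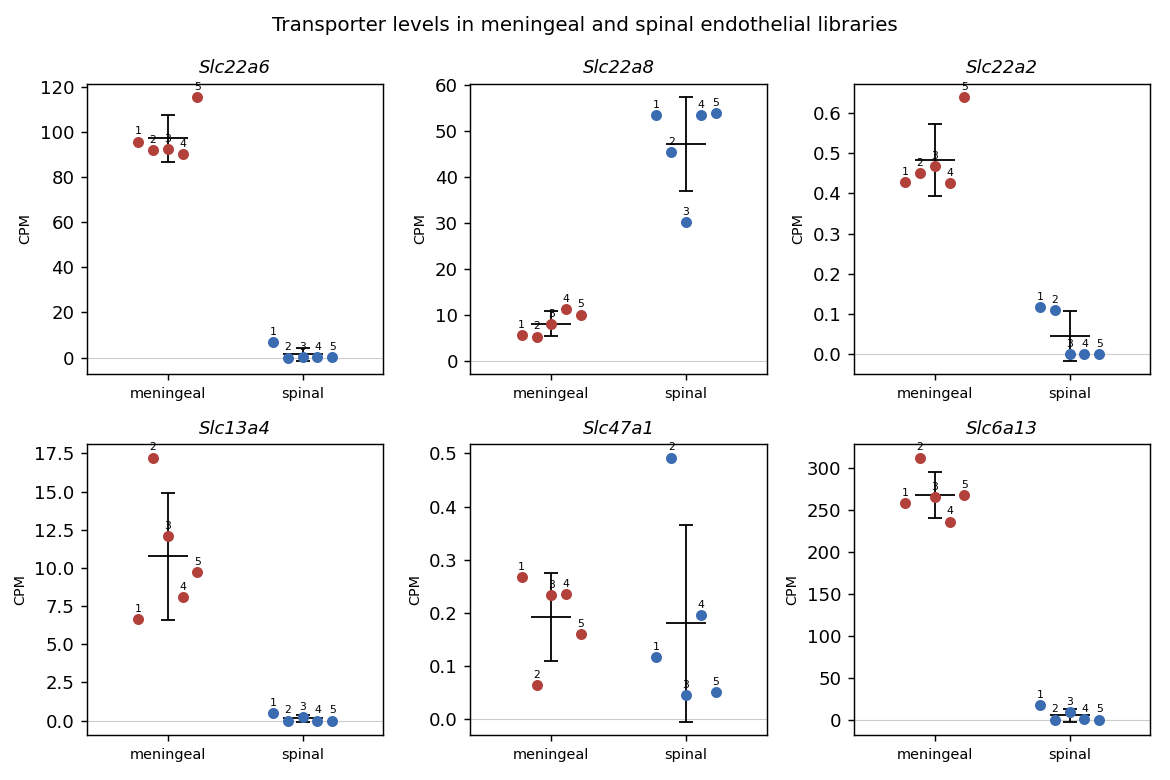
Level of each transporter (CPM, linear axes that differ between panels) in the meningeal (left) and spinal (right) endothelial libraries; points are libraries with their batch number, and bars give the mean ± SD (n = 5 each). Slc22a6, Slc13a4 and Slc6a13 were higher in every meningeal library than in any spinal one, Slc22a8 was lower in every one, and Slc47a1 overlapped.

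Slc22a6 was at 95.7, 91.9, 92.5, 90.2 and 116 CPM in meningeal batches 1 to 5, against 6.73, 0, 0.360, 0.131 and 0.104 CPM in spinal batches 1 to 5. Every meningeal library was above every spinal one, as for 17.4 % of all tested genes, and the spinal library of batch 1 held 115 of the 127 Slc22a6 counts of its group. The 0 counts of spinal batch 2 allow a level of up to 0.164 CPM (3 counts, counting error only). The log2 fold change was 6.09 ± 0.84 (SE; edgeR quasi-likelihood test, adjusted p = 7.31e-05). Without spinal batch 1 it was 9.22 ± 0.33.

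The neighbouring Slc22a8 showed the reverse. It was at 5.63, 5.27, 8.07, 11.3 and 10.1 CPM in meningeal batches 1 to 5, against 53.4, 45.3, 30.1, 53.4 and 53.8 CPM in spinal batches 1 to 5. The groups did not overlap, as for 19.2 % of all tested genes in that direction, and the lowest spinal library, batch 3, was still above every meningeal one. Slc22a8 fell by 2.54 ± 0.24 on the log2 scale in meningeal libraries (edgeR adjusted p = 3.36e-06).

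Within the pair, Slc22a6 took 94.4, 94.6, 92.0, 88.8 and 92.0 % of the counts of both genes in meningeal batches 1 to 5, and 11.2, 0, 1.18, 0.244 and 0.192 % in spinal batches 1 to 5. The exact (Clopper-Pearson) 95 % intervals of the meningeal libraries run from 87.4 to 95.7 % together, and the highest spinal bound is 13.3 %, in batch 1; they cover counting error only. In the knockout series, where cord and meninges were not separated, the share was 88.0, 90.6 and 88.8 % in knockout endothelial batches 1 to 3, and 84.7 and 86.5 % in wild-type batches 1 and 3. These shares lie near those of the meningeal libraries, although the series were counted with different strand settings and were not tested against each other.

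**Figure D2:**
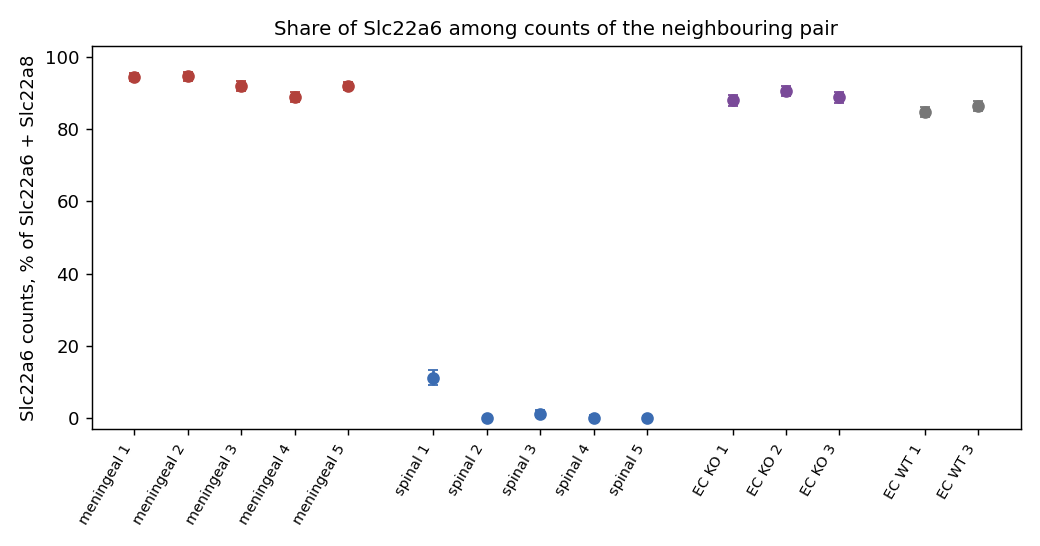
Slc22a6 counts as a percentage of the counts of Slc22a6 and Slc22a8 together (linear axis), by endothelial library and batch, from left meningeal, spinal, Plxnd1-knockout and wild type; bars are exact 95 % binomial intervals. The spinal libraries lie at 0 to 11.2 %, and the other endothelial libraries at 84.7 to 94.6 %.

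Slc6a13 had the highest level of the 6 genes in the meninges. It was at 258, 312, 265, 236 and 268 CPM in meningeal batches 1 to 5, against 17.2, 0.273, 9.45, 0.523 and 0.259 CPM in spinal batches 1 to 5. The groups were far apart, and within the spinal group batches 1 and 3 stood above the others. The log2 fold change was 5.58 ± 0.90 (edgeR adjusted p = 0.000249); without spinal batch 1 it was 6.59 ± 0.88.

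Slc13a4 was lower in level but similar in pattern. It was at 6.65, 17.2, 12.1, 8.08 and 9.71 CPM in meningeal batches 1 to 5, and at 0.468, 0, 0.225, 0 and 0 CPM in spinal batches 1 to 5. Spinal batches 2, 4 and 5 had no count, which allows up to 0.164, 0.196 and 0.155 CPM in them. The log2 fold change was 6.19 ± 0.63 (edgeR adjusted p = 6.19e-06), and 7.24 ± 0.65 without spinal batch 1.

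The spinal libraries of batches 1 and 3, which held most of the spinal counts of these genes, also held more of some meningeal markers. Lum, a collagen-binding proteoglycan gene of fibroblasts, was at 44.7 and 45.8 CPM in them, against 1.91, 1.18 and 0.933 CPM in spinal batches 2, 4 and 5. Cldn11, a tight junction gene of the arachnoid, was at 14.2 and 6.48 CPM against 0.547, 0.850 and 1.09 CPM. The summed fibroblast markers did not set these batches apart, at 4576 and 3517 CPM against 5146, 3299 and 3148 CPM. Nor did the summed arachnoid markers, at 391 and 314 CPM against 352, 406 and 362 CPM. That sum was also 347 to 566 CPM in knockout and 333 to 507 CPM in wild-type motor neuron libraries, where Cldn11 was at most 2.01 CPM. At this level it is therefore not particular to arachnoid cells. Col1a1, a fibroblast marker, was at 571 and 353 CPM against 666, 529 and 464 CPM. Spinal batch 2, highest in the fibroblast sum and in Col1a1, was also highest in summed pericyte and smooth muscle markers. These were at 9089 CPM in it and at 4845, 3627, 4592 and 4630 CPM in spinal batches 1, 3, 4 and 5. The fibroblast sum of spinal libraries is therefore not shown to follow meningeal fibroblasts alone. The part of meningeal cells in the result was not tested. Over spinal batches 2, 4 and 5 pooled, Slc22a6 had 4 counts, Slc6a13 18 and Slc13a4 none.

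The spinal libraries differed in the ratio of these genes. For each 100 Slc6a13 counts there were 29.5 to 43.2 Slc22a6 counts in the meningeal libraries, against 39.1, 0, 3.81, 25 and 40 in spinal batches 1 to 5. In spinal batches 2, 4 and 5 the ratio rests on only 5, 8 and 5 Slc6a13 counts. Batches 1 to 3 are of the ventral cord. The regional difference did not pass a test between ventral and whole-cord batches for any of the 4 genes, with 0.547 % of 17901 genes called: Slc6a13 differed by -4.43 ± 1.47 on the log2 scale (edgeR interaction, adjusted p = 0.138) and Slc22a6 by -4.37 ± 2.04 (adjusted p = 0.264). Without spinal batch 1 the Slc22a6 value was -0.85 ± 1.04 (edgeR adjusted p = 0.738; 0.0741 to 0.738 over its alternatives).

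The cation carriers were near the floor of detection. Slc22a2 had 8, 7, 8, 9 and 12 counts in meningeal batches 1 to 5, and 2, 2, 0, 0 and 0 in spinal batches 1 to 5, which is 0.425 to 0.640 CPM against at most 0.117 CPM. The groups did not overlap, but these counts failed the filter. In the fit without a filter, where 12.4 % of genes were called higher, the log2 fold change was 3.26 ± 0.73 (edgeR adjusted p = 0.00186, the only setting that tested it). Slc47a1 had 1 to 5 counts in meningeal libraries and 1 to 9 in spinal ones, which overlap; without a filter its log2 fold change was 0.13 ± 0.68 (edgeR adjusted p = 0.922).

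Per kilobase of exon, which makes genes comparable, the order of levels in the meningeal libraries was Slc6a13, Slc22a6, Slc13a4, Slc22a8, Slc22a2 and Slc47a1. The means were 120 ± 12.4, 24.4 ± 2.63, 3.14 ± 1.21, 2.32 ± 0.77, 0.194 ± 0.036 and 0.073 ± 0.031 CPM per kb in that order (SD, n = 5). The ranges of Slc13a4 and Slc22a8 overlapped, and those of the other neighbours in the order did not. In spinal libraries Slc22a8 led, at 13.6 ± 2.93 CPM per kb, above all values of Slc6a13 (2.48 ± 3.41), whose range overlapped that of Slc22a6 (0.368 ± 0.740).

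Next, the levels were set against markers of cell types. Of the 18 endothelial markers, 15 were lower and none higher in meningeal libraries, with a median log2 fold change of -1.5. Relative to the summed endothelial markers, Slc22a8 was 0.464 ± 0.058 % in meningeal libraries and 1.11 ± 0.11 % in spinal ones (SD, n = 5 each; two-sided exact permutation test, p = 0.00794, the smallest that 252 arrangements allow). The meningeal ratio was 41.7 % of the spinal one. Other marker lists were lower with it. Pericyte and smooth muscle markers summed to 1390.3 to 1855 CPM in meningeal and 3627 to 9089 CPM in spinal libraries, with 7 of 10 called lower and 3 higher (median log2 fold change -1.67). Neural progenitor markers summed to 737 to 900.4 CPM in meningeal and 1116 to 1935 CPM in spinal libraries, with 7 of 8 called lower and none higher (median -4.69). The part of these cells in the Slc22a8 level was not tested.

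Of the 18 fibroblast markers, 16 were higher and 1 lower in the meninges, with a median log2 fold change of 2.42. Slc22a6 was 0.474 ± 0.061 % of their sum in meningeal libraries and 0.0329 ± 0.0640 % in spinal ones (SD, n = 5 each; exact permutation p = 0.00794). Slc6a13 was at 1.32 ± 0.30 % against 0.135 ± 0.175 %, and Slc13a4 at 0.0540 ± 0.0267 % against 0.00333 ± 0.00475 %, with the same exact p for each. On this scale the groups did not overlap for any of the 3 genes, but that depends on the markers chosen. The spinal sums were 3148 to 5146 CPM, although Lum was at only 0.933 to 1.91 CPM in spinal batches 2, 4 and 5. The ratio and its p-values therefore cannot separate a level per fibroblast from a different share of meningeal cells. Per level of Lum alone, Slc6a13 was at 28.0 to 46.3 % in meningeal and 14.3 to 44.4 % in spinal libraries (exact permutation p = 0.286), and Slc22a6 at 10.4 to 16.2 % against 0 to 15.1 % (exact p = 0.159). Per level of Cldn11, Slc6a13 was at 91.9 to 214 % against 23.8 to 146 % (exact p = 0.0952) and Slc22a6 at 39.7 to 63.2 % against 0 to 47.5 % (exact p = 0.0238). Slc13a4 was at 0.722 to 2.19 % of Lum against 0 to 1.05 % (exact p = 0.0159), and at 3.34 to 11.8 % of Cldn11 against 0 to 3.47 % (exact p = 0.0317). All of these ranges overlapped, and the tests, chosen after seeing the data, are not adjusted for their number. In spinal batches 2, 4 and 5 the ratios rest on 0 to 8 counts of a transporter. They are set there over only 35, 18 and 18 Lum counts and 10, 13 and 21 Cldn11 counts, so their counting error is large.

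**Figure D3:**
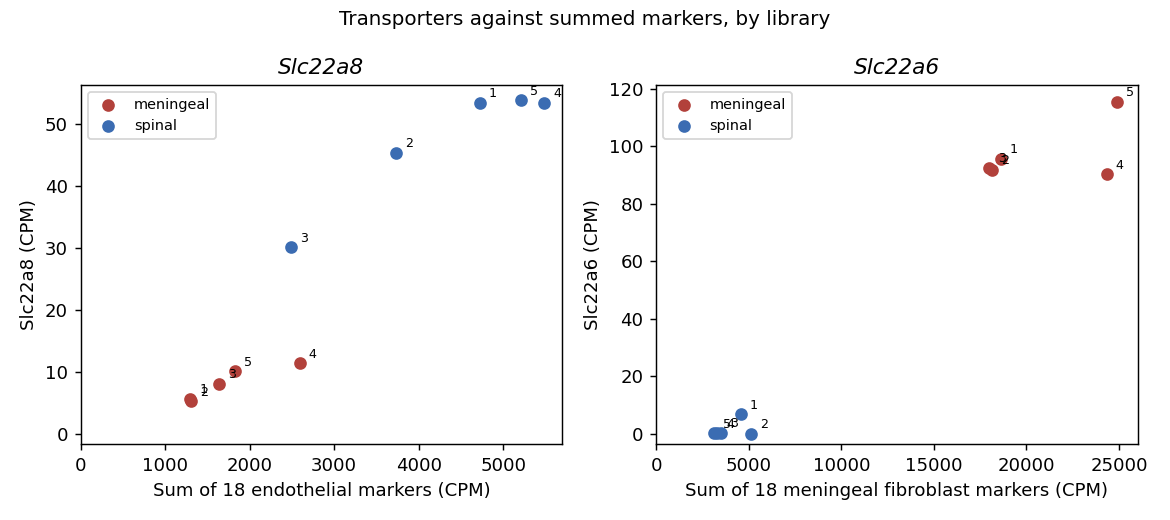
Slc22a8 against 18 summed endothelial markers (left) and Slc22a6 against 18 summed meningeal fibroblast markers (right), all in CPM on linear axes; points are libraries with batch numbers, meningeal in red and spinal in blue. Slc22a8 is 0.404 to 0.551 % of its marker sum in meningeal and 0.973 to 1.21 % in spinal libraries.

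Markers of the arachnoid, the outer leptomeningeal layer for which these transporters are known, were present. Of 14 such genes 11 were higher and 2 lower in meningeal libraries, and their sum was 1559 to 1775 CPM there and 314 to 406 CPM in spinal libraries. Cldn11 was at 146 to 291 CPM against 0.547 to 14.2 CPM, and Dpp4, a surface peptidase of the arachnoid barrier, at 14.1 to 25.4 CPM against 1.62 to 6.15 CPM. Cdh1, the cadherin of the arachnoid barrier layer, was low in both, at 2.36 to 3.69 CPM against 1.30 to 3.01 CPM, and overlapped. Choroid plexus markers summed to 23.8 to 113 CPM against 1.59 to 2.33 CPM. The upper end was meningeal batch 3, with Ttr alone at 80.3 CPM, and the next meningeal library, batch 5, summed to 37.8 CPM. Kidney tubule markers summed to 1.70 to 3.02 CPM against 10.9 to 32.0 CPM. Only 2 of these 6 kidney genes passed the filter, with 1 called lower and 0 higher, so the sum does not speak for the list as a whole. The part of any of these cells in the levels was not tested.

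The genes whose log2 levels ran most like each transporter over the 10 regional libraries were ranked among 12100 genes, as a description; the 10 points form 2 groups, so the values mostly follow the regional difference. Closest to Slc22a6 were the angiotensin receptor gene Agtr2 (r = 0.992), the peptidase gene Mme (0.990) and the collagen gene Col6a6 (0.989). Closest to Slc22a8 were the vitamin C carrier Slc23a2 (r = 0.995), Nbeal2 (0.995) and the thyroid hormone carrier of brain capillaries Slco1c1 (0.994). Slco1c1 was at 9.45 to 27.0 CPM in meningeal and 82.7 to 179 CPM in spinal libraries. Slc13a4 ran with Synpo2, Xpnpep2 and Fbn2 (r = 0.997, 0.995 and 0.994), and Slc6a13 with Mrgprf, Kcnk2 and Epha8 (0.997, 0.997 and 0.996). Among the members, Slc22a6, Slc13a4 and Slc6a13 correlated with each other at r = 0.975 to 0.978, and Slc22a8 with each of them at -0.944 to -0.887.

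Related transport genes moved in both directions between the regions, where 23 % of all tested genes were called higher and 24.8 % lower. Of 9 other organic anion and cation carriers tested, 4 were higher and 1 lower in meningeal libraries (median log2 fold change 0.38). The orphan carrier Slc22a23 was at 214 ± 30.8 CPM in meningeal and 85.2 ± 16.7 CPM in spinal libraries, and the cation carrier Slc22a3 (OCT3) at 5.12 ± 1.74 and 0.154 ± 0.212 CPM. Of 15 tested organic anion polypeptides and ABC pumps, 2 were higher and 8 lower (median -0.65).

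Of 9 tested genes of sulfate and dicarboxylate transport, 2 were higher and 2 lower (median -0.04), near the shares over all genes. Slc35b2, which carries the activated sulfate donor into the Golgi, was at 95.3 ± 6.31 CPM in meningeal and 60.3 ± 9.92 CPM in spinal libraries. Slc13a3 (NaDC3), the dicarboxylate carrier that supplies the exchange ion of OAT1 and OAT3 in kidney, was at 1.75 ± 0.47 CPM in meningeal and 31.8 ± 9.87 CPM in spinal libraries, and fell by 4.18 ± 0.25 on the log2 scale (edgeR adjusted p = 1.50e-07). Of 7 partners of anion exchange, such as scaffolds and sodium pump subunits, none was higher and 3 were lower (median -0.54); the pump subunit Atp1b1 was at 3.74 ± 0.80 against 24.5 ± 5.23 CPM.

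Of 14 tested genes of GABA and related SLC6 transport and GABA metabolism, 2 were higher and 10 lower (median -1.12). The betaine and GABA carrier Slc6a12 was higher, at 6.45 ± 1.03 CPM in meningeal and 0.333 ± 0.440 CPM in spinal libraries, as was the proline carrier Slc6a20a, at 29.7 ± 6.45 against 7.65 ± 2.68 CPM. The GABA-synthesis genes Gad1 and Gad2 and the neuronal glycine carrier Slc6a5 were lower, at 0.454, 0.102 and 0.181 CPM in meningeal and 20.1, 17.1 and 28.1 CPM in spinal libraries. Neuron markers moved with them, summing to 150 to 438 CPM in meningeal and 827 to 1874 CPM in spinal libraries; their part in the result was not tested.

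The second question was how the transporters differ between endothelial cells and motor neurons. In both genotypes all 4 tested members were called higher in endothelial cells; of 19266 genes tested, 68.8 % were called in the knockout (35.3 % higher) and 64.8 % in wild type (33.8 % higher). The median log2 fold change of the tested members was 6.06 in the knockout and 6.88 in wild type, against 0.02 over all genes in each. Slc22a8 had 0 to 9 counts and Slc13a4 3 to 6 counts in motor neuron libraries. Both passed the filter only through the endothelial libraries, which favours a higher call. The count of calls and the medians are therefore a description only.

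**Figure D4:**
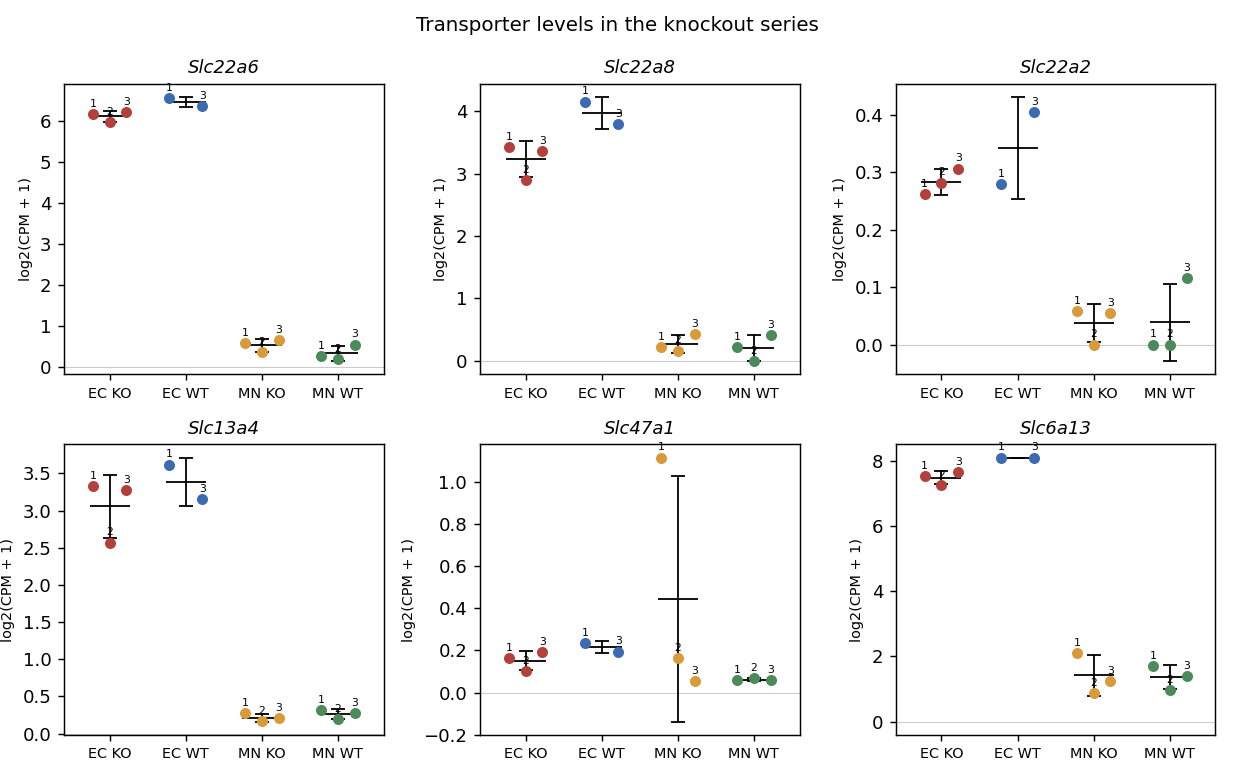
Level of each transporter (log2(CPM + 1), axes that differ between panels) in Plxnd1-knockout (KO) and wild-type (WT) endothelial cells (EC) and motor neurons (MN); points are libraries with their batch number, bars the mean ± SD (n = 3, 2, 3 and 3). Slc22a6, Slc22a8, Slc13a4 and Slc6a13 were higher in every endothelial than in every motor neuron library.

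Slc22a6 was at 71.5, 61.8 and 73.8 CPM in knockout endothelial batches 1 to 3 and at 93.2 and 82.0 CPM in wild-type batches 1 and 3. In motor neurons it was at 0.499, 0.283 and 0.578 CPM in knockout batches 1 to 3, and at 0.205, 0.144 and 0.461 CPM in wild type. Within each genotype all endothelial libraries were above all motor neuron libraries, as for 37.2 % of genes in the knockout and 40.6 % in wild type. The difference was 7.23 ± 0.26 on the log2 scale in the knockout (edgeR adjusted p = 1.64e-08) and 8.29 ± 0.29 in wild type (adjusted p = 2.06e-08).

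Slc6a13 was at 184, 153 and 201 CPM in knockout endothelial batches 1 to 3 and at 274 and 273 CPM in wild-type batches 1 and 3. Its motor neuron levels were 3.33, 0.848 and 1.39 CPM in knockout batches and 2.25, 0.961 and 1.63 CPM in wild type. The cell types did not overlap, and the log2 fold changes were 6.60 ± 0.40 in the knockout (edgeR adjusted p = 2.55e-07) and 7.38 ± 0.42 in wild type (adjusted p = 2.42e-07).

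Slc22a8 was at 9.74, 6.44 and 9.28 CPM in knockout and 16.8 and 12.8 CPM in wild-type endothelial libraries, and at 0 to 0.347 CPM in the 6 motor neuron libraries. Slc13a4 was at 9.03, 4.93 and 8.71 CPM in knockout and 11.3 and 7.93 CPM in wild-type endothelial libraries, and at 0.121 to 0.246 CPM in motor neurons. Neither gene overlapped between the cell types. The wild-type log2 fold changes were 6.39 ± 0.57 for Slc22a8 (edgeR adjusted p = 4.36e-06) and 5.54 ± 0.37 for Slc13a4 (adjusted p = 6.30e-07).

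Slc22a2 had 5 to 9 counts in endothelial libraries and at most 2 in motor neuron libraries, and was not tested after the filter. Slc47a1 had 2 to 5 counts in endothelial libraries and 1 to 3 in motor neuron ones, except for 28 counts (1.16 CPM) in knockout motor neuron batch 1. That library also held liver markers that summed to 614 CPM, against 0.694 to 2.26 CPM in the other motor neuron libraries; their part in its Slc47a1 count was not tested.

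Marker sums of other cells differed between the cell types as well, and their part in the levels was not tested. Fibroblast markers summed to 17391 to 20559 CPM in knockout and 18281 to 18313 CPM in wild-type endothelial libraries, and to 428 to 892 CPM in motor neuron libraries. Endothelial markers summed to 770 to 1732 CPM in endothelial libraries and 25.8 to 61.1 CPM in motor neurons. Over all genes tested in wild type, 64.8 % were called and 33.8 % were called higher in endothelial cells. Of the related genes, 6 of 9 other anion and cation carriers were higher and 2 lower. Of 16 organic anion polypeptides and ABC pumps 10 were higher and 4 lower, and of 10 sulfate and dicarboxylate genes 6 were higher and 1 lower.

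Of the GABA genes 4 of 14 were higher and 9 lower in wild-type endothelial cells, and of the partners 5 of 7 were higher and 1 lower. Over all tested genes 64.8 % were called and 33.8 % were called higher. The share of higher GABA genes was near the latter. Slc9a3r1, a scaffold protein gene, was at 86.3 ± 0.65 CPM in endothelial cells (n = 2) and 6.96 ± 1.01 CPM in motor neurons (n = 3). The proline carrier Slc6a20a, the sulfatase activator Sumf1 and Slc22a23 were also higher, at 17.5, 34.9 and 222 CPM in endothelial cells and 0.0549, 5.76 and 72.6 CPM in motor neurons. The monoamine carrier Slc29a4, the lipocalin receptor gene Slc22a17, Gad1, Gad2 and Atp1b1 were lower, at 31.1, 209, 11.1, 11.6 and 15.0 CPM in endothelial cells and 182, 461, 215, 368 and 240 CPM in motor neurons.

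**Figure D5:**
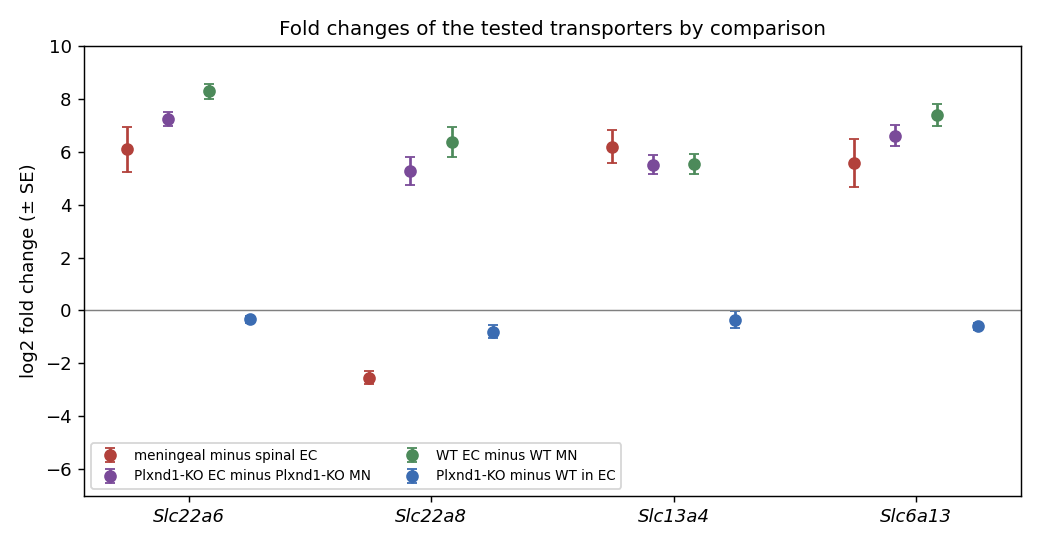
Log2 fold change (linear axis) of the 4 tested transporters in 4 comparisons; points are edgeR estimates and bars their SE. The regional and cell type comparisons lie far from 0, with Slc22a8 at -2.54 between meningeal and spinal libraries, and the knockout comparison in endothelial cells lies between -0.80 and -0.34.

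The last question was whether loss of Plxnd1 went with a change of these genes. In endothelial cells all 4 tested members had lower means in the knockout, and none passed the unpaired edgeR test, which called 0 % of 18209 genes (431 genes at unadjusted p under 0.05; DESeq2 called 34). Plxnd1 itself, at a log2 fold change of -3.20 ± 0.26, missed the threshold in this test (edgeR adjusted p = 0.161) and passed with batch as a block (-3.04 ± 0.11, adjusted p = 5.52e-15), so a member that missed it is not shown to be unaltered. Slc22a6, Slc22a8 and Slc6a13 were lower in all 3 knockout libraries than in both wild-type ones, as were 7.96 % of tested genes. The log2 fold changes were -0.34 ± 0.12, -0.80 ± 0.24, -0.61 ± 0.13 and, for Slc13a4, -0.34 ± 0.31 (adjusted p = 0.999 each by edgeR).

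With batch as a block, Slc6a13 fell by 0.51 ± 0.09 on the log2 scale (edgeR adjusted p = 0.00317; 0.00317 to 1 over the alternatives), where 0.989 % of genes were called and 0.225 % were called lower. This fit has 1 residual degree of freedom and compares batches 1 and 3 alone. Slc22a8 fell short of the threshold in it (-0.63 ± 0.16, edgeR adjusted p = 0.0712), as did Slc22a6 (-0.27 ± 0.10, adjusted p = 0.316) and Slc13a4 (-0.10 ± 0.18, adjusted p = 0.965). Slc6a13 lies on chromosome 6, 5.31 Mb from Plxnd1, and Slc13a4 lies on it 80.7 Mb away; an effect of chromosome segments linked to Plxnd1 was not tested. Relative to the fibroblast markers, Slc6a13 was 1.02, 0.879 and 0.977 % in knockout batches 1 to 3, and 1.49 and 1.49 % in wild-type batches 1 and 3.

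The endothelial markers had a median log2 fold change of -0.36 in the knockout, and the fibroblast markers one of -0.01, with none of 18 called in either list by the unpaired test. With batch as a block, the fit that called Slc6a13, 2 of 18 endothelial markers were lower (median -0.15), none of 18 fibroblast markers was called (median 0.02), 4 of 5 tested cartilage markers were higher (median 0.74) and 2 of 9 erythroid markers were lower (median -0.23). Cartilage markers summed to 787 to 1094 CPM in knockout and 582 to 756 CPM in wild-type endothelial libraries, and erythroid markers to 10509 to 22438 CPM in knockout and 12691 to 23281 CPM in wild type. The part of these cells in the Slc6a13 call was not tested. Slc22a8 was 0.677, 0.837 and 0.828 % of the endothelial marker sum in knockout batches 1 to 3, and 0.969 and 1.11 % in wild-type batches 1 and 3. In motor neurons Slc22a6 (log2 fold change 0.72 ± 0.53) and Slc6a13 (0.19 ± 0.53) were the members tested, and neither passed (edgeR adjusted p = 1 each after rounding; 0.012 % of 16695 genes called). The difference of the knockout effect between the cell types passed for no member (0 % of 19266 genes called by edgeR); it was -1.06 ± 0.44 for Slc22a6 and -0.78 ± 0.55 for Slc6a13.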

How the data were processed

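RNA of 22 libraries was sequenced and 21 were used. The deposited values are raw counts per gene, which the authors made, per the file headers, with featureCounts 1.6.4 over the exons of each gene name; the headers give no option for reads with several alignments, so such reads were not counted. Trimmomatic 0.39, STAR 2.5.3a and builds mm10 and GRCm38 are named in the submitters' processing notes. Per the file headers the knockout series was counted as single reads without strand and the regional series as read pairs on the reverse strand, so the series were not tested against each other.

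Genes were kept by filterByExpr (minimum count 10), libraries scaled by TMM, and each comparison tested by quasi-likelihood in edgeR 4.0.16 (R 4.3.3), with p-values adjusted by Benjamini-Hochberg over every gene tested and called under 0.05. CPM divides counts by the scaled total of tested genes, and correlations used log2 CPM with a prior count of 2. The steps were tested on simulated data. Alternatives were DESeq2 1.42.0, RLE and no scaling, no filter, batch as a block, separate dissections and leaving out each library. Batch numbers in the labels pair libraries; same-numbered deviations correlated at 0.441 and 0.517 in endothelial cells, 0.358 to 0.412 in motor neurons, and -0.273 to 0.303 in the regional series.

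The members, marker lists and pathway lists were chosen with earlier results of these data known. The text names the members, Plxnd1, up to 5 list genes of smallest p per direction in the regional and wild-type cell type comparisons, the 3 genes most like each member above 1 CPM among genes above 5 CPM, and defining markers; 1 gene that this rule names is not reported here. No exon of a member overlaps one of another annotated gene. The repeated wild-type endothelial file was left out. Sequences are RefSeq entries.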

Additional observations from a re-analysis of the deposited data

Results flagged for a closer look

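Slc22a6 in spinal batch 1 stood apart from the other 4 spinal libraries on 3 scales. It was at 6.73 CPM, with the next spinal library at 0.360 CPM. It was 0.147 % of the summed fibroblast markers, with the next at 0.0102 %, and 11.2 % of the counts of Slc22a6 and Slc22a8, with the next at 1.18 %. Per 100 Slc6a13 counts it did not stand apart, at 39.1 with spinal batch 5 at 40. Meningeal batch 5 stood apart for Slc22a6, at 116 CPM with the next meningeal library at 95.7 CPM, and for Slc22a2, at 0.640 CPM with the next at 0.468 CPM, which is 12 counts against 9 or fewer. The gap to the nearest library was compared with the range of the group in 24 groups of 5 values, of which 5 stood apart; chance gives about 1 in 20. These values rest on the same libraries and are not independent.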

How the results depend on the processing

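Between the regions the 3 higher calls and the 1 lower call held in all 10 fits that left out a library (7134 to 7904 genes called), and Slc22a6, Slc6a13, Slc13a4 and Slc22a8 kept their direction in every alternative run. DESeq2 called 1 member higher, Slc13a4, and 1 lower, Slc22a8; it gave no adjusted p for Slc22a6 and Slc6a13, with log2 fold changes of 6.06 and 5.59. Over the alternatives, ratios to markers included, log2 fold changes ranged from 0.78 to 10.22 for Slc22a6, 0.31 to 9.60 for Slc6a13, 2.10 to 10.60 for Slc13a4 and -2.73 to -1.26 for Slc22a8. For the 3 higher genes the lower ends are ratios to Lum or Cldn11, in which Slc6a13 (both) and Slc22a6 (Lum) missed the threshold, and the upper ends come from leaving out spinal batches 1 and 3; the end of Slc22a8 nearest 0 is its ratio to endothelial markers. Leaving out these batches was chosen after seeing the data, as were the marker ratios and the leave-outs of the difference tests. The regional block changed no member's call. Cell type calls numbered 12289 to 12797 in the knockout and 10113 to 11737 in wild type without 1 library, with all 4 members higher.

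The endothelial knockout comparison called 0 genes, 34 with DESeq2, 2 without a filter, 180 with the replicate block, in which 1 member, Slc6a13, was lower, and 0 to 1 without 1 library. In motor neurons it called 2 genes, 4 with DESeq2, 4 without a filter, 6 with the block and 0 to 1 without 1 library. There Slc6a13 ranged from -0.54 to 0.53 without 1 library, changing sign to -0.54 without knockout batch 1 and -0.07 without wild-type batch 2. The ventral and whole-cord difference was called for 98 genes and for 0 to 1190 without 1 library, with 0 to 1 member lower: Slc6a13 passed without spinal batch 2 (-4.98 ± 0.46, edgeR adjusted p = 0.000433; 0.000433 to 0.399 over its alternatives). The knockout difference between cell types called 0 to 1 genes without 1 library, and that of Slc13a4, at -0.03, ranged from -0.26 to 0.24, changing sign in 4 of 11 such fits. The causes were not tested. Slc22a2 and Slc47a1 rest on at most 12 and 28 counts a library, which limits what can be said of them.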
